A study of Homo sapiens with 24 samples.

Results

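STC1 and STC2 are the 2 stanniocalcin genes, paralogs that were picked by symbol from the 23106 genes counted in each library of this RNA-seq series. The pair was chosen with values of these data in view, because the STC2 count was higher with each of the 2 single stimuli than without them. Those 2 comparisons are therefore described here without a p-value, and nothing is supported with them. The cells were RCC4+VHL, a human line from a clear cell renal carcinoma that had lost the tumour suppressor VHL and in which VHL was put back by stable transfection, so that all 4 groups carry the restored gene and come from 1 engineered line. The cells were kept for 6 h in 21% oxygen (normoxia) or 0.5% oxygen (hypoxia), with 0.1% DMSO as the vehicle or with 100 nM ITE, a ligand of the aryl hydrocarbon receptor (AHR). Each of the 4 combinations, named here by oxygen and then by compound, has 6 libraries, and the series asked how the hypoxia and AHR pathways act on each other's genes.

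Stanniocalcins are secreted glycoprotein hormones named after the corpuscles of Stannius of bony fish, where they limit calcium uptake. In mammals both are made in many tissues and act mainly on nearby cells. STC2 inhibits the protease PAPP-A, which cleaves the binding protein IGFBP4 and so frees insulin-like growth factor, and it has been linked to calcium entry through STIM1. It is known as a gene that responds to hypoxia and to endoplasmic reticulum stress. Hypoxia-inducible factor (HIF) and AHR are transcription factors that both bind DNA together with the same partner, ARNT.

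STC2 lies on the minus strand of chromosome 5 at 172741726 to 172755450 on GRCh37. The 250 bases that precede the RefSeq start of STC2 are shown because both stimuli act through factors with short known DNA motifs. They are the RefSeq sequence of GRCh38.p14 at chr5:173328415-173328664, minus strand, and the same 250 bases occur exactly 1 time on GRCh37 chromosome 5, at 172755418 to 172755667. The GENCODE gene model given above begins further upstream, so the 33 bases nearest the RefSeq start lie inside it. Capitals mark GCGTG, the core motif of AHR with ARNT and also 1 form of the HIF core, on either strand.
STC2 upstream sequence: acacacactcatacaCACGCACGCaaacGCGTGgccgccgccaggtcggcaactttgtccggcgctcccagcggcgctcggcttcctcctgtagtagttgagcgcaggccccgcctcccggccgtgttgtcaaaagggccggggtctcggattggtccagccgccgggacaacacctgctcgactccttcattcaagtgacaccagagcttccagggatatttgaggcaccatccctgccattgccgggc
GCGTG was found 1 time on the printed strand, at bases -222 to -218 from the start, and 2 times on the other strand, at -235 to -231 and -231 to -227, these last 2 sharing a base. It was present on either strand in 32.2% of 35116 RefSeq promoter windows of the same length. The longer TNGCGTG was found 1 time, on the other strand, where it overlaps a GCGTG, against 4.52% of windows with a match. The other HIF core form, ACGTG, was not found in these bases and was in 18.5% of windows, and the ATF4 composite motif TGATGNAAN was not found and was in 3.13%. These are matches of letters and not binding sites.

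Total counts ran from 770094 to 93851342 per library, with a median of 7981993 over the 24 libraries. The 9 genes listed as renal epithelial markers, such as PAX8 and KRT8, had counts in all 24 libraries. VIM, also on that list, is not particular to epithelium. Of the 8 markers of blood, endothelial and stromal cells, PTPRC, CD3E and PECAM1 were at 0 in 23 libraries each, while ACTA2 and PDGFRB were present in all. CD14 was at 0 in 16 libraries, VWF in 9 (at most 1.84 CPM) and COL1A1 in 1 (at most 27.1 CPM). Of the renal markers, 1 of 9 was called higher in hypoxia with ITE and 1 in both stimuli against neither, against 1.89% and 1.79% of all genes. The first was KRT19, from 187 ± 18.5 to 346 ± 242 CPM (SD, n = 6), a mean with a wide spread in hypoxia + ITE. CPM is counts per 1000000 counts of the library after scaling. The second was PAX2, from 28.3 to 48.7 CPM. The part of these markers in the STC2 result was not tested. The labels give 6 replicates per group and the study describes them as independent.
Libraries that stood apart were hypoxia + ITE replicate 6, whose genes deviated from their group mean by a median of 0.755 on the log2 scale, and hypoxia + DMSO replicate 1, at 0.426. The other 22 libraries were between 0.110 and 0.355. Normoxia + DMSO replicate 4 held 45 genes with at least 10 counts there and 0 counts in the other 23 libraries, and no other library held such a gene.

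STC1, on the minus strand of chromosome 8 at 23699442 to 23712319 on GRCh37, was nearly absent from these libraries. It had 0 counts in 23 of the 24 libraries and 12 counts, or 0.442 CPM, in normoxia + DMSO replicate 4, and so was 1 of the 45 genes counted in that library alone. A count of 0 allows up to 3 counts, which is a level of up to 0.0294 CPM in the deepest library and up to 4.12 CPM in the shallowest, by counting error only. Over a whole group, 3 counts came to 0.0338 CPM in normoxia + ITE, 0.0461 CPM in hypoxia + DMSO and 0.0185 CPM in hypoxia + ITE. STC1 did not pass the filter on low counts, so 1 of the 2 members could be tested. With no filter, edgeR's quasi-likelihood test gave STC1 adjusted p values between 0.221 and 1 over the 6 comparisons. No fold change of STC1 is given.

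STC2 was an abundant transcript in every library, with 515 to 78171 counts. In normoxia + DMSO its level was 186.4 CPM in the lowest library, 223.5 at the median and 324.6 in the highest, a mean of 242.3 ± 53.9 CPM (SD, n = 6). With ITE in normoxia the libraries spanned 350.0 to 516.7 CPM around a median of 423.6, a mean of 437.0 ± 64.9 (SD, n = 6). In hypoxia + DMSO they spanned 320.2 to 852.6 CPM around a median of 708.7, a mean of 668.4 ± 180.9 (SD, n = 6).
The low value of that group belongs to replicate 1, and the other 5 libraries were between 680.3 and 852.6 CPM. With both stimuli the lowest library was at 619.5 CPM, the median at 805.0 and the highest, replicate 6, at 1113, a mean of 826.6 ± 177.6 (SD, n = 6). The order of the means was normoxia + DMSO, normoxia + ITE, hypoxia + DMSO, hypoxia + ITE. The first 2 groups did not overlap, normoxia + ITE and hypoxia + DMSO overlapped through replicate 1 of the latter alone, and the 2 hypoxic groups overlapped widely. Counting error was at most 4.41% of any value, against a coefficient of variation between libraries of 14.8% to 27.1%.

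**Figure D1:**
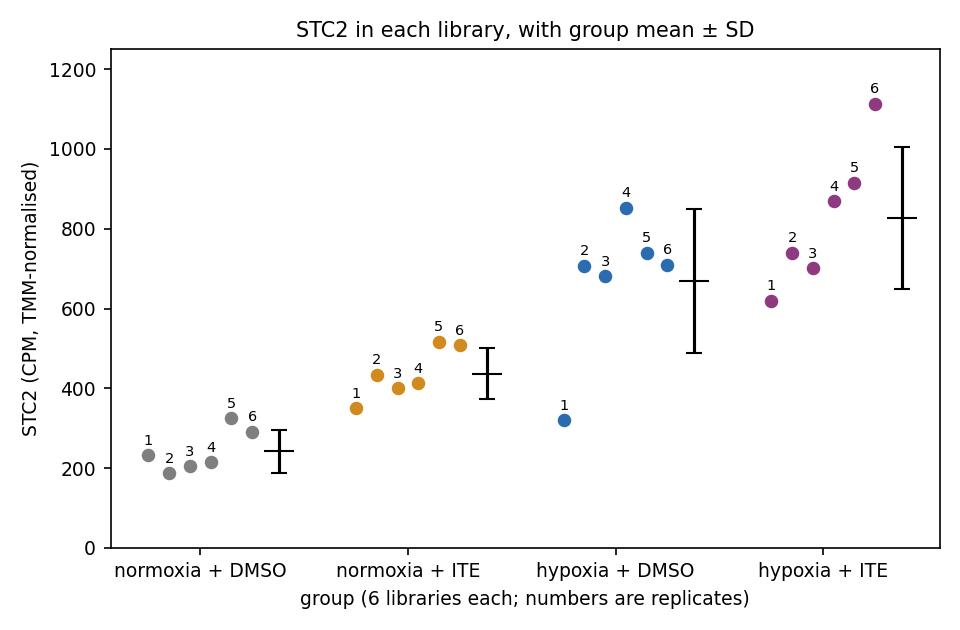
STC2 in CPM (vertical axis) in each of the 24 libraries, by group (horizontal axis), with the replicate number above each point and the group mean ± SD as black bars. The 6 normoxia + ITE libraries lie above all 6 normoxia + DMSO libraries, and hypoxia + DMSO replicate 1, at 320.2 CPM, lies apart from its group.

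Per kilobase of exon, STC2 stood at 47.9 CPM in normoxia + DMSO, which placed it at rank 817 of the 10641 tested genes with a known length. It was at rank 425 with ITE, 272 with hypoxia and 226 with both. In the 3 groups without a single STC1 count, the mean STC2 level was at least 10600-fold (normoxia + ITE), 11800-fold (hypoxia + DMSO) and 36400-fold (hypoxia + ITE) higher per length than the STC1 level that 3 counts over the group would give.

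For ITE in normoxia, which is 1 of the 2 comparisons that chose STC2, the mean level was 1.80 times that of DMSO, and all 36 pairs of libraries had the higher value with ITE. The fitted log2 fold change was 0.85 (SE 0.18). In the fit over 11735 genes 0.0511% of genes were called higher here, at an adjusted p under 0.05, and STC2 was not among those 6 genes, from which nothing is read since the comparison chose it. For hypoxia with DMSO, the other comparison behind the choice, the mean was 2.76 times higher, 35 of 36 library pairs had the higher value in hypoxia, and the log2 fold change was 1.46 (SE 0.18). In that comparison 1.16% of genes were called higher and 0.136% lower, 1.3% in all, and STC2 was among the higher ones, which its choice on this comparison favours and which supports nothing. In bulk RNA, more of a transcript per cell and more cells that make it cannot be told apart. The exception among the pairs was hypoxia + DMSO replicate 1 against normoxia + DMSO replicate 5, at 320.2 and 324.6 CPM. Without that hypoxic library the log2 fold change was 1.61.

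The choice of STC2 did not use the comparison of hypoxia with normoxia in ITE-treated cells, although it shares a group with a comparison that did. All 6 hypoxia + ITE libraries lay above all 6 normoxia + ITE libraries, the lowest at 619.5 CPM against a highest of 516.7. STC2 rose 1.89 times, a log2 fold change of 0.92 (SE 0.18) with an adjusted p of 0.00295 by edgeR's quasi-likelihood test. Of all genes tested, 1.89% were called higher in this comparison.
With ITE in cells already in hypoxia the levels were 826.6 and 668.4 CPM, a ratio of 1.24. Only 3 of 6 libraries with ITE exceeded every hypoxia + DMSO library, and 26 of 36 pairs had the higher value with ITE. The log2 fold change was 0.31 with a 95% interval of -0.06 to 0.68, and it did not pass the test (adjusted p = 0.574 by edgeR), in a comparison where 0.0597% of genes were called higher. It shares the hypoxia + DMSO libraries with a comparison that chose STC2 for being high in them, which favours a smaller value here. Between libraries of the same replicate number the ratio ran from 1.02 to 1.93, the highest in replicate 1. Leaving out hypoxia + DMSO replicate 1 gave a log2 fold change of 0.16, and leaving out hypoxia + ITE replicate 6 gave 0.20.
Both stimuli against neither gave a mean 3.41 times higher, with no overlap between the libraries. The log2 fold change was 1.77 (SE 0.18, adjusted p = 1.33e-07 by edgeR), in a comparison where 1.79% of genes were called higher and 0.528% lower, 2.32% in all. This comparison shares the normoxia + DMSO libraries with both comparisons that chose STC2, which favours a higher value, so it is not independent of the choice.

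**Figure D2:**
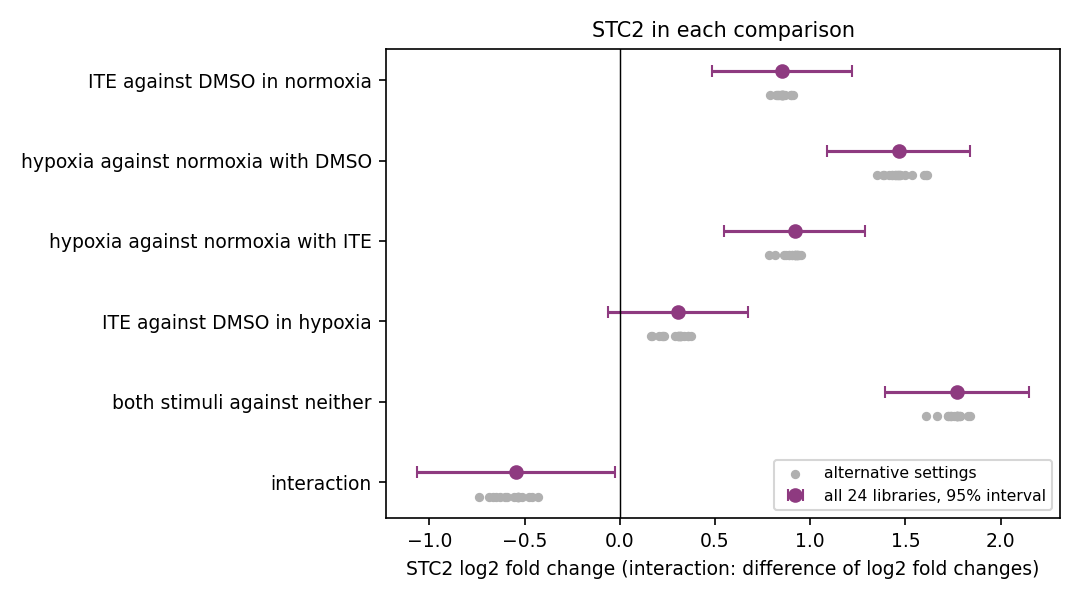
STC2 log2 fold change (horizontal axis) in each comparison, with the fit over 24 libraries and its 95% interval in purple and the other settings as grey points. The interval for ITE in hypoxia, -0.06 to 0.68, includes 0. STC2 was chosen on ITE in normoxia and hypoxia with DMSO, so nothing is read from the intervals of those 2.

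The 2 stimuli together can be set against what the single responses add up to. ITE alone came with a difference of 194.7 CPM from the untreated mean, hypoxia alone with 426.0 and both with 584.2. Added to the untreated level, the single differences give 863.1 CPM, while multiplied as ratios they give 1205 CPM, and the level measured was 826.6.
On the log2 scale, where multiplying is the reference, the interaction was -0.54 (SE 0.25, 95% interval -1.06 to -0.02), with an unadjusted p of 0.0407 and an adjusted p of 0.915 over all genes in edgeR, so it did not pass. This value contains both comparisons that chose STC2 for being high, which favours a negative sign, so it is not independent of the choice. No gene passed this interaction test in edgeR (0%), where 374 had an unadjusted p under 0.05, and none passed in DESeq2 or limma-voom either. On the linear scale the measured level was below the sum by 36.5 CPM (-36.5, SE 109.1 with the 4 groups taken as independent). By replicate number the SD of that difference was 183.6 CPM, and 4 of the 6 replicate numbers were below the sum. An exact two-sided sign-flip test over the replicate numbers gave p = 0.5625, with 0.03125 the smallest that 6 values allow, and the sum it is set against is likewise made of the differences that chose STC2. The labels do not tie equal numbers to 1 culture, so this pairing is by number alone. Without hypoxia + DMSO replicate 1 the sum was 932.7 CPM and the log2 interaction -0.69.

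The 5 genes whose log2 CPM followed STC2 most closely over the 24 libraries, among 11624 genes compared, were SLC2A1 (r = 0.891), HK1 (0.890), EFNA1 (0.859), RNF24 (0.858) and FUT11 (0.836). These correlations are a description over libraries that share groups, and with group means removed they were 0.631, 0.837, 0.486, 0.744 and 0.686. SLC2A1 encodes a glucose transporter and HK1 a hexokinase, the enzyme that starts glycolysis, while EFNA1 encodes an ephrin ligand.
SLC2A1 rose in hypoxia from 144 to 398 CPM with DMSO (log2 fold change 1.47, adjusted p = 6.25e-10 by edgeR), next to 1.46 for STC2. In normoxia the ITE log2 fold change was 0.34 for SLC2A1, 0.44 for EFNA1, 0.09 for HK1, 0.08 for RNF24 and -0.02 for FUT11, none of which passed the test. STC2 had 0.85 there, but it was chosen for rising in that comparison, which favours the higher value, and nothing is read from it. All 5 were called higher in hypoxia with DMSO and in hypoxia with ITE, against 1.16% and 1.89% of all genes, which their choice by likeness to STC2 favours. The differences between these genes and STC2 were not tested.

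Genes of proteins linked to STC2, directly or through PAPP-A or STIM1, had low transcript levels or no call in any comparison. PAPPA, the protease that STC2 inhibits, averaged between 0.948 and 1.38 CPM over the groups, with a hypoxia + ITE mean of 1.30 that was 0.671 without replicate 1. Its paralog PAPPA2 had group means of at most 0.0954 CPM and was not tested. IGFBP4, the substrate of PAPP-A, averaged 1.34 to 2.73 CPM, the highest mean, of hypoxia + ITE, being 1.73 without replicate 6. Per kilobase in normoxia + DMSO, PAPPA stood at 0.119 CPM and IGFBP4 at 0.803, against 47.9 for STC2.
STIM1, the calcium sensor of the endoplasmic reticulum, averaged 78.9 to 95.2 CPM, and ORAI1, the channel it opens, 16.4 to 22.5 CPM. None of PAPPA, IGFBP4, STIM1 and ORAI1 was called in any of the 6 comparisons. The smallest adjusted p was 0.347 for PAPPA, 0.303 for IGFBP4, 0.234 for STIM1 and 0.228 for ORAI1 by edgeR.
Of 16 genes of the PAPP-A and IGF axis, 9 were tested and 1 was called, IRS2, an adaptor of the insulin and IGF receptors, which rose in hypoxia with ITE (33.0 to 53.7 CPM, log2 fold change 0.70, adjusted p = 0.0154 by edgeR). The call was lost when replicate number 3, 4, 5 or 6 was left out, with total counts as the scaling, and in a fit of the compared groups alone. The median log2 fold change of the 9 was 0.20 in that comparison, against 0.02 for all genes. Of 15 tested genes of store-operated calcium entry and calcium stores none was called in any comparison by edgeR. At most 4 had an unadjusted p under 0.05 in a comparison, in hypoxia with ITE and in both stimuli against neither. Of all 11735 genes tested, 2361 and 2268 had such a p in those comparisons. DESeq2 called none of the 15, and limma-voom at most 1 in a comparison. Of 9 tested genes of calcium and phosphate balance, SLC20A2, a phosphate importer, fell in hypoxia with ITE (183 to 129 CPM, log2 fold change -0.50, adjusted p = 0.0171 by edgeR). That call was lost when replicate number 2, 3, 4 or 5 was left out and in a fit of the compared groups alone. In hypoxia with ITE 1.89% of all genes were called higher and 0.46% lower, 2.35% in all.

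A further 3 sets of genes give the context of the 2 stimuli and of the stress response that STC2 is also known for. The HIF and AHR target lists hold genes that the study itself had measured by PCR in this line as targets. Among them are NDRG1, PFKFB4 and INSIG2 for HIF, and CYP1B1, ALDH1A3, CYP27A1, BMF and ASB2 for AHR. Their response was known beforehand, so calls in these 2 lists are context only. Of 16 tested HIF target genes, 15 rose in hypoxia with DMSO, 14 in hypoxia with ITE and 15 with both stimuli, against 1.16%, 1.89% and 1.79% of all genes, and the medians were 1.54, 1.42 and 1.53. NDRG1, a hypoxia-induced gene, went from 33.2 to 316 CPM in hypoxia with DMSO (log2 fold change 3.25). BNIP3, a mitophagy receptor, went from 81.5 to 477 CPM (2.55) and PFKFB4, a regulator of glycolysis, from 5.05 to 52.8 CPM (3.41). ADM, the vasodilator adrenomedullin, went from 22.2 to 121 CPM (2.47). The 16 ranged from 0.82 (LOX) to 3.41 (PFKFB4) in that comparison, with a median of 1.54. The 1.46 of STC2, a value it was chosen on, lay inside that range, and the differences were not tested. None of the 16 was called by edgeR for ITE at either oxygen level, with 1 at an unadjusted p under 0.05 in normoxia and 3 in hypoxia. Of all 11735 genes tested, 171 and 1122 had such a p there. DESeq2 called 0 of the 16 HIF target genes and limma-voom 1, in normoxia. Their median with ITE was -0.07 in normoxia and -0.21 in hypoxia.
Of 9 tested AHR target genes, 3 rose with ITE in normoxia and 4 with ITE in hypoxia, against 0.0511% and 0.0597% of all genes. CYP1B1, a cytochrome P450 enzyme, rose from 56.7 to 322 CPM in normoxia and from 47.2 to 236 CPM in hypoxia, log2 fold changes of 2.51 and 2.35. TIPARP, an AHR-induced ADP-ribosyltransferase, rose in normoxia (log2 fold change 1.35) and had 0.67 in hypoxia, which did not pass (adjusted p = 0.494 by edgeR). ASB2, a ubiquitin ligase component, was called in hypoxia (5.97 to 15.6 CPM, adjusted p = 0.0319), a call that was lost in 11 of the other settings. None of the 9 was called by edgeR for hypoxia with either treatment, with 2 at an unadjusted p under 0.05 with DMSO and 3 with ITE. Of all 11735 genes tested, 1111 and 2361 had such a p there. DESeq2 called 0 and 1 of the 9 and limma-voom 1 and 2.
Of 19 tested ATF4 and unfolded protein response genes, 1 rose in each of the 2 hypoxia comparisons, against 1.16% and 1.89% of all genes. It was TRIB3, a pseudokinase induced by ATF4, which went from 129 to 239 CPM with DMSO (log2 fold change 0.89, adjusted p = 0.00221 by edgeR). With both stimuli against neither TRIB3 rose and CEBPB, a transcription factor, fell (log2 fold change -0.53, adjusted p = 0.026 by edgeR). Of all genes, 1.79% were called higher and 0.528% lower in that comparison. The CEBPB call was lost when replicate number 3, 4, 5 or 6 was left out and in a fit of the compared groups alone. The median of the 19 was 0.01, -0.05 and -0.14 in hypoxia with DMSO, hypoxia with ITE and both against neither. The 6 genes for HIF and AHR subunits and VHL, ARNT among them at 30.1 to 36.6 CPM, had no call in any comparison by edgeR. At most 2 had an unadjusted p under 0.05, in hypoxia with ITE, ITE in hypoxia and both against neither. Of all 11735 genes tested, 2361, 1122 and 2268 had such a p there. DESeq2 called at most 1 of the 6 in a comparison and limma-voom 0.

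**Figure D3:**
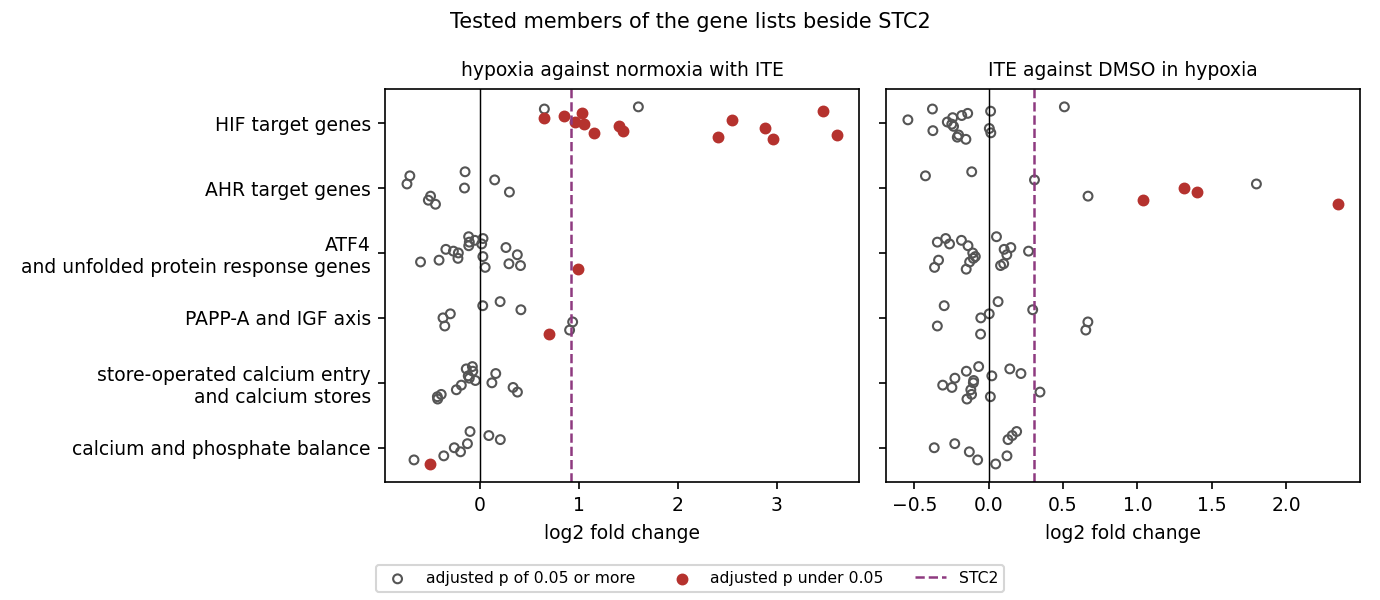
Log2 fold change (horizontal axis) of each tested member of 6 gene lists (rows) for hypoxia with ITE (left) and ITE in hypoxia (right), filled where the adjusted p was under 0.05, with STC2 as a dashed line at 0.92 and 0.31. Filled points gather in the HIF list on the left (14 of 16) and are found in the AHR list alone on the right (4 of 9).

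The hypoxia + DMSO library with the low STC2 level also had a low mean over the HIF target genes, 5.86 on the log2 CPM scale, as did replicate 2 at 5.76, against 6.29 to 6.45 in replicates 3 to 6. STC2 in replicate 2 was 707.7 CPM, near the median of its group. The part of these differences in the STC2 level was not tested. The genes next to STC2 that passed the filter are BNIP1, 150336 bases away, and BOD1, 278698 bases away. Neither was called in any comparison, with BOD1 in both against neither the closest (log2 fold change 0.44, adjusted p = 0.0736 by edgeR).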

How the data were processed

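The deposited files hold whole-number read counts per gene symbol, which the authors made by trimming with Trim Galore (0.3.3), aligning to GRCh37 with HISAT2, removing reads that were not uniquely placed with Picard (2.0.1) and counting with HTSeq (0.5.4p3) in intersection-strict mode. The strand setting is not given in the sources used here. Members and gene lists were chosen with earlier results of these data known. Counts of the 24 libraries were fitted with edgeR (4.0.16) in R (4.3.3), with TMM factors, filterByExpr at a minimum count of 10, 1 mean per group and the quasi-likelihood test, adjusted by Benjamini-Hochberg over the 11735 genes that passed, at a threshold of 0.05. CPM is TMM-normalised, and log2 CPM used a prior count of 2. Named genes were both members, known partners of the proteins, at most 6 called genes per list, the 5 genes most like STC2 and the nearest tested neighbours of STC2 (those of STC1 are not reported here). Alternatives were DESeq2 (1.42.0), limma-voom (3.58.1), other size factors and filters, a replicate block and libraries left out, of which 2 libraries were chosen after seeing the data. STC1 failed the filter, so its planned tests, its ratio to STC2 and their joint deviations were not analysed. Intervals and floors cover counting error or the spread between libraries only.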

Additional observations from a re-analysis of the deposited data

Results flagged for a closer look

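In 36 groups of 6 libraries, over 9 measures, 10 groups had a library far from the others by Dixon's criterion, where chance gives about 1 in 20, or 1.8. STC2 was at 320.2 CPM in hypoxia + DMSO replicate 1, below the other 5 libraries of its group. Total counts stood apart in normoxia + ITE replicate 5 (48357647), hypoxia + DMSO replicate 5 (37995687) and hypoxia + ITE replicate 4 (87404330), each above the rest. The mean over AHR target genes was low in hypoxia + DMSO replicate 2, at 3.37 on the log2 CPM scale, the library with the fewest counts. PAPPA was at 4.46 CPM in hypoxia + ITE replicate 1, from 6 counts. IGFBP4 was at 0.192 CPM (2 counts) in normoxia + ITE replicate 6 and at 7.72 CPM (32 counts) in hypoxia + ITE replicate 6. It was at 0 (0.0 CPM) in hypoxia + DMSO replicate 2, where 3 counts came to 4.12 CPM, so that 0 does not show a low level. These PAPPA and IGFBP4 values rest on few counts. STIM1 was at 113.7 CPM in normoxia + ITE replicate 2.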

How the results depend on the processing

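STC2 kept its direction in all 6 comparisons under every alternative run, and hypoxia with ITE and both stimuli against neither passed the test in each of their 20 alternatives, while ITE in hypoxia (20 alternatives) and the interaction (18) passed in none. The log2 fold change ranged from 0.79 to 0.91 for ITE in normoxia, 1.35 to 1.61 for hypoxia with DMSO, 0.78 to 0.95 for hypoxia with ITE, 0.16 to 0.38 for ITE in hypoxia and 1.61 to 1.84 for both, and the interaction from -0.74 to -0.43. For ITE in normoxia, on which STC2 was chosen, 8 of 20 alternatives called it, the replicate block among them, and nothing is read from that. With the replicate number as a block, STC2 gave 0.91 for hypoxia with ITE, 0.31 for ITE in hypoxia, 1.76 for both and -0.54 for the interaction, with no change of call in these 4. Same-numbered libraries deviated together, at a correlation over 0.1, in 5 of 6 pairs of the normoxic groups but in 2 of 6 pairs of the hypoxic groups. The numbers were therefore not taken as pairs in the main fit. The sign-flip test and the same-number ratios paired libraries by number alone. The number of list members called in any comparison moved for small lists. The PAPP-A and IGF axis had 2 with DESeq2, 2 with voom and 0 with total counts only, against 1, and 0 to 2 with libraries left out. Calcium entry genes had 3 with voom and 0 to 1 with libraries left out, calcium and phosphate genes 0 to 1, ATF4 and unfolded protein response genes 5 with voom and 1 to 3 with libraries left out, and the HIF and AHR subunits 2 with DESeq2. The cause was not tested. Of 300 values of single named genes under alternatives, 270 kept their side of the threshold and 30 no longer passed, in IRS2, SLC20A2, CEBPB and ASB2. Over all genes, edgeR called 152 in hypoxia with DMSO, 276 in hypoxia with ITE, 272 in both against neither and 6 for ITE in normoxia, DESeq2 251, 683, 646 and 14, and limma-voom 840, 605, 721 and 112. STC1 was not called by edgeR without a filter in any of 6 comparisons. DESeq2 gave it an adjusted p in 2 of 6, neither of them a call. It had 0 counts in the deepest library as in the shallowest, and the part of depth was not tested.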

Other observations

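Over the 24 libraries with group means removed, the STC2 level was set against the mean log2 CPM of 3 gene lists, a comparison chosen after values were seen. For the HIF target genes Pearson's r was 0.444 (permutation p = 0.0852, Benjamini-Hochberg adjusted 0.256 over the 3 lists) and Spearman's rho 0.346 (permutation p = 0.121, adjusted 0.363), and r was 0.511 without the 2 libraries farthest from the median. Within groups of 6 libraries it was -0.439 in normoxia + ITE and 0.398 to 0.585 in the other 3 groups. For the AHR target genes r was -0.262 (permutation p = 0.295, adjusted 0.442) and rho -0.256 (permutation p = 0.261, adjusted 0.391), and r was -0.344 without the 2 farthest libraries and -0.509 to -0.109 within groups. For the ATF4 and unfolded protein response genes r was 0.0351 (permutation p = 0.876, adjusted 0.876) and rho 0.188 (permutation p = 0.412, adjusted 0.412), and r was 0.166 without the 2 farthest, while within single groups of 6 libraries it ran from -0.487 in hypoxia + DMSO to 0.891 in normoxia + DMSO. None of the 3 relations passed the correction.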
